A study of Mus musculus with 4 samples.

Results

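The genes described here are 35 genes of glucose and lactate transport, glycolysis, amino acid and iron uptake and sterol synthesis, together with the regulators Myc, Hif1a and Srebf2. They were chosen by name and role, not by a threshold on their levels, and all 35 were found among the 22473 gene symbols used from the deposited files. RNA was sequenced from spleen T cells of C57BL/6 background mice in 4 groups with 1 library each. The first cell type was the invariant natural killer T (iNKT) cell, which recognises lipids on CD1d, taken from wild-type animals (WT) and from animals with the genotype Ezh2fl/fl CD4-Cre (KO). The second was the CD4+ T cell with high CD44 (CD44hi), a population rich in antigen-experienced cells, from animals of the same genotypes. In the KO mice both Ezh2 alleles carry loxP sites, and Cre is driven by Cd4 regulatory sequence, which is active from the thymus onward and therefore reaches both lineages. Its product is the methyltransferase of Polycomb repressive complex 2 and places the silencing mark H3K27me3. For iNKT cells the sort used T cell receptor beta staining with a CD1d tetramer carrying PBS-57, and for CD44hi cells it used receptor beta, CD44 and CD4 staining. The labels give no age, no sex, no number of mice and no alleles beyond "WT" for the wild-type groups. Each group is 1 library, so differences have no replicate check, no test was run, and every comparison is between libraries.

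T cells take up glucose through facilitative transporters of the SLC2 family and break it down to pyruvate through the glycolytic enzymes; lactate dehydrogenase turns pyruvate into lactate, which leaves through monocarboxylate transporters. The transcription factor MYC drives the transport of amino acids and iron and many glycolytic genes in dividing lymphocytes, and HIF-1α, encoded by Hif1a, activates glycolytic genes when oxygen is low. Cholesterol is built from acetyl-CoA through mevalonate, isoprenoids, squalene and lanosterol, and SREBP2, encoded by Srebf2, activates most genes of that route when membrane sterol is low.

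Promoter sequence of 6 of the genes is shown because sterol enzymes and glycolytic enzymes are classical targets of named factors, and because the levels below differ between these groups of genes. The 6 genes were chosen among named genes with a match to a motif of their group. A match in each was therefore fixed by that choice. The sequences are from RefSeq on GRCm38.p6, read in the direction of the gene, and each is a stretch of 100 bases upstream of the annotated start. Capitals mark the sterol regulatory element (TCACNCCAC) in Hmgcs1, the NF-Y box (CCAAT, or ATTGG where it lies on the opposite strand) in Cyp51, Idi1 and Mvd, the E-box (CACGTG) in Ldha and the hypoxia core (ACGTG, or CACGT on the opposite strand) in Pgk1. Other matches within a stretch are left in lower case.
Hmgcs1: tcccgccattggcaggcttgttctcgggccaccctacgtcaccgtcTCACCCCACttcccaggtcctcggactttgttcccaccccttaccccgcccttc
Cyp51: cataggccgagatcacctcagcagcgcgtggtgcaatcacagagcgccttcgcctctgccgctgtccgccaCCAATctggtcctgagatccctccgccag
Idi1: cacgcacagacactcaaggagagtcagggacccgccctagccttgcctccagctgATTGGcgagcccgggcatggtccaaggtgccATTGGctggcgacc
Mvd: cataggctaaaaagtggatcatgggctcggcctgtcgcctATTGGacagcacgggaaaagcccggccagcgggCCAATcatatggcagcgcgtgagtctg
Ldha: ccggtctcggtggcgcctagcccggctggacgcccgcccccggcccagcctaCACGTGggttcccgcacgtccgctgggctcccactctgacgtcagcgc
Pgk1: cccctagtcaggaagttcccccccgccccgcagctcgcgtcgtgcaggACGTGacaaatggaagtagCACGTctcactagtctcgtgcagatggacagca

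The stretches lie at chr13:119690168-119690267 (Hmgcs1, plus strand), chr5:4104698-4104797 (Cyp51, minus strand), chr13:8885506-8885605 (Idi1, plus strand), chr8:122443423-122443522 (Mvd, minus strand), chr7:46845704-46845803 (Ldha, plus strand) and chrX:106186902-106187001 (Pgk1, plus strand). The Hmgcs1 element ends 129 bases before the start, the Cyp51 box 25 bases and the Ldha E-box 43 bases before it. In the windows searched, from 250 bases before to 50 bases after a start and on both strands, 28 of the 35 genes had an entry. A gene with several starts had several windows, 32851 over all genes, and counted as matched when any of them matched. Genes with more windows are more likely to match, and the shares below were not adjusted for this. CCAAT was found in 8 of the 8 sterol genes with an entry, against 41.06% of all 27025 genes with an entry. TCACNCCAC was found in 1 of those 8, Hmgcs1, and in 1 of 13 glycolytic enzymes, Pkm2, against 1.436% of all genes. ACGTG, which also lies inside every CACGTG, was found in 8 of 13 glycolytic enzymes against 21.78% of all genes, and the alternative hypoxia core GCGTG in 7 of 13 glycolytic enzymes and in 7 of the 8 sterol genes against 35.15%. CACGTG itself was found in 4 of the 28 genes (Ldha, Hif1a, Dhcr7 and Insig1) against 8.093% of all genes. A match is a description of these letters, not evidence that a factor binds there.

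Some facts of the libraries bear on every comparison. Levels are in FPKM, fragment numbers scaled for the length of the transcript and the depth of the library, and runs of values below give iNKT before CD44hi and, within each, WT before KO. The deposited files hold no counts. The spacing of low FPKM values put depth, relative to WT iNKT, at 1.08 for KO iNKT, 3.69 for WT CD44hi and 4.90 for KO CD44hi. Ezh2 was at 15.3 and 16.8 FPKM in iNKT and 28.9 and 18.5 FPKM in CD44hi, and a value for the whole gene does not check the genotype, since Cre removes only the floxed part. All 7 T cell markers listed in the files were at 1 FPKM or more in every library. The iNKT markers summed to 1799 FPKM in WT iNKT but to 714 in KO iNKT, beside 433 in WT CD44hi and 614 in KO CD44hi. Not all of these 8 markers followed their sum. In KO iNKT 2 were higher and 6 lower than in WT iNKT, and in KO CD44hi 5 were higher and 3 lower than in WT CD44hi. B cell markers summed to 1.55 and 1.72 FPKM in the iNKT pair and to 61.3 and 90.8 in the CD44hi pair, and the plasmacytoid dendritic cell markers to 161 and 128 FPKM and to 151 and 581. Siglech, which defines the latter cells, was at 0 and 0 FPKM in iNKT and 11.1 and 75.7 FPKM in CD44hi. Y-linked Ddx3y was at 11.5 FPKM in WT CD44hi, 0.00445 in KO CD44hi and 0 in both iNKT libraries, while Xist, which marks female cells, was at 55.3 and 76.8 FPKM in iNKT and 46.8 and 80.0 FPKM in CD44hi. The WT CD44hi library thus held RNA of male and female cells, and sex cannot be told apart from genotype in the CD44hi pair or from cell type in the WT pair. In bulk libraries fewer cells of a type and less RNA per cell cannot be told apart either.

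The 35 genes spanned a wide range of abundance but mostly a narrow range across libraries. Summed over the 13 glycolytic enzymes the level was 887 and 1058 FPKM in iNKT and 959.5 and 943 FPKM in CD44hi. Eno1 entered this sum as listed, without an abundant near-identical copy described below. The 11 sterol genes summed to 77.9, 88.0, 112 and 134 FPKM in the same order, and the 3 glucose and lactate transporters to 50.9, 30.1, 37.2 and 32.3. The ratio of the highest to the lowest library was under 1.5 for 9 genes and under 2 for 20, with a median of 1.84. KO iNKT was the highest library for 14 genes, WT CD44hi for 12, KO CD44hi for 7 and WT iNKT for 2. Aldoa, the aldolase of glycolysis, had the smallest ratio at 1.06 and Eno1, an enolase, the largest at 42.5. All but Hk2 and Sqle were at 1 FPKM or more in every library.

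**Figure D1:**
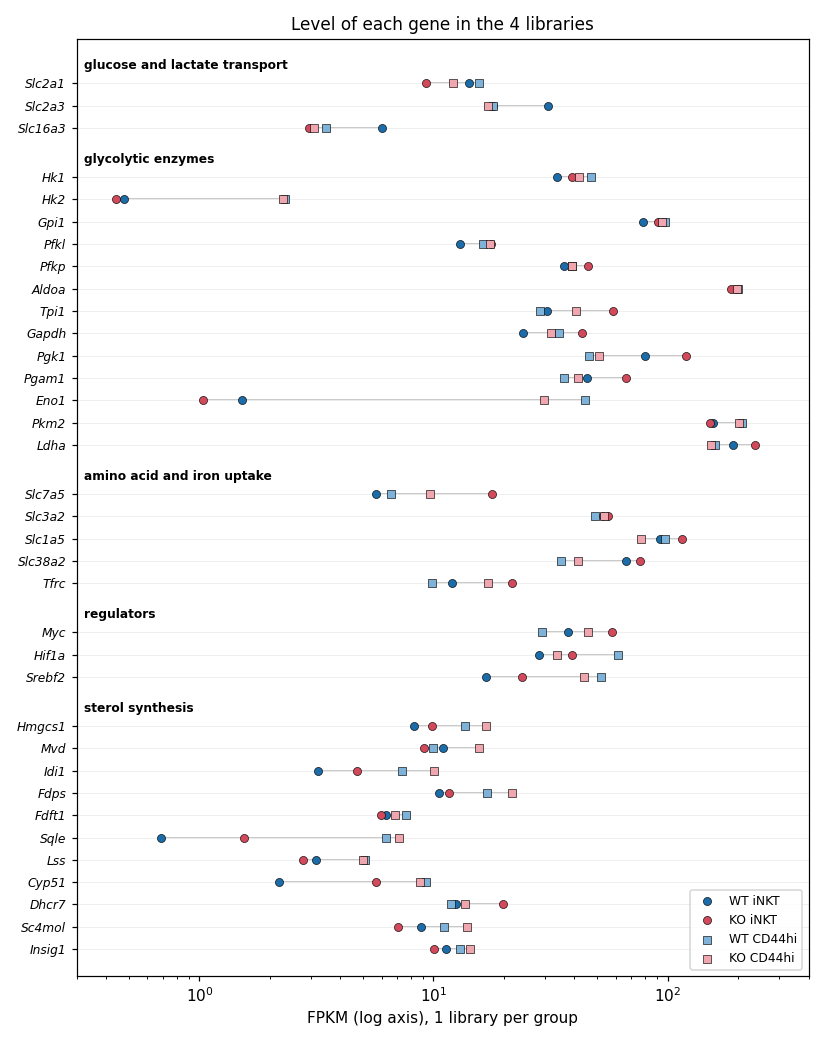
Level of each of the 35 genes in the 4 libraries, on a log axis of FPKM, grouped by role; circles are iNKT and squares CD44hi, 1 library per point. Eno1, Hk2 and Sqle have both iNKT circles far to the left of the CD44hi squares, while Aldoa has all 4 libraries on nearly the same value.

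The first question was how the genes differ between genotypes in iNKT cells. In KO iNKT the amino acid transporter Slc7a5, the lanosterol demethylase Cyp51, the iron receptor Tfrc, the glycolytic enzymes Tpi1 and Gapdh and the regulator Myc were higher than in WT iNKT, while the transporters Slc2a3, Slc2a1 and Slc16a3 were lower. A gene counted as measured at 1 FPKM or more in either library, and as called when log2(FPKM + 1) differed by at least 2-fold, a scale that understates the difference of low genes. Of 34 measured genes 2 were called higher, Slc7a5 and Cyp51, and none lower, where 6.08% of all 10816 measured genes were called higher and 3.33% lower. The median log2 difference was 0.27 over the genes and 0.05 over all measured genes, and 23 of the 34 were above 0, where 55.9% of all measured genes were. At 1.5-fold 8 were higher and 2 lower, against 14.3% and 8.65% of all measured genes. Folds below are plain ratios of FPKM with a 95% exact Clopper-Pearson interval based on estimated fragment numbers, which covers counting error only and not variation between mice or sorts.

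All 3 transporters of glucose and lactate were lower in KO iNKT than in WT iNKT. Slc2a3, the high-affinity glucose transporter GLUT3, was at 30.7 and 17.9 FPKM in iNKT and 18.03 and 17.0 FPKM in CD44hi. WT iNKT stood apart and the other 3 libraries lay close together, and the KO iNKT level was 1.72-fold lower (1.51 to 1.96). Slc16a3, which encodes the lactate exporter MCT4, was at 6.03, 2.95, 3.49 and 3.10 FPKM in the same order of libraries, again highest in WT iNKT and 2.04-fold lower in KO iNKT (1.35 to 3.13). Its difference on the log2(FPKM + 1) scale, -0.83, was short of the call. Slc2a1, the glucose transporter GLUT1, was at 14.1, 9.30, 15.7 and 12.1 FPKM, lower in the KO library of each cell type, by 1.52-fold in iNKT (1.24 to 1.87).

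Of the 12 measured glycolytic enzymes 9 were above 0 in KO iNKT against WT iNKT, beside the 55.9% of all genes, with a median log2 difference of 0.32, and the intervals of those 9 ratios lay above 1. Tpi1, triose phosphate isomerase, was at 30.6 and 58.2 FPKM in iNKT and 28.6 and 40.8 FPKM in CD44hi. The KO library was the higher of each pair, by 1.90-fold in iNKT (1.59 to 2.29). Gapdh, glyceraldehyde-3-phosphate dehydrogenase, was at 24.2, 43.2, 34.4 and 31.9 FPKM, 1.78-fold higher in KO iNKT (1.46 to 2.18). Pgk1, phosphoglycerate kinase, was at 80.2, 119.9, 46.3 and 50.9 FPKM, so that both iNKT libraries were above both CD44hi libraries and KO iNKT was 1.49-fold above WT iNKT (1.36 to 1.64). Ldha, the lactate dehydrogenase A chain, was at 189.7, 237, 160.1 and 154 FPKM and 1.25-fold higher in KO iNKT (1.16 to 1.33).

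Enzymes that differed little included the most abundant one after Ldha in the KO iNKT library. Aldoa ranged over the 4 libraries from 187 to 199 FPKM, with a KO to WT ratio in iNKT of 0.951 (0.884 to 1.02). Pkm2, the pyruvate kinase gene that RefSeq lists as Pkm, was at 157, 152, 208 and 202 FPKM, with a ratio of 0.966 (0.904 to 1.03). Hk1, the main hexokinase here, was at 33.7, 39.1, 47.1 and 41.8 FPKM and 1.16-fold higher in KO iNKT (1.04 to 1.29). Its inducible relative Hk2 was at 0.474 and 0.439 FPKM in the iNKT libraries, under the level at which a gene counted as measured. The ratios of Gpi1, Pfkl, Pfkp and Pgam1, which act between glucose-6-phosphate and enolase, lay between 1.16 and 1.47. Gapdh has many near-identical copies in the genome, of which 9 are in the files. Those 9 summed to 1.66 and 1.81 FPKM in iNKT and 1.04 and 2.28 FPKM in CD44hi, little beside the level of Gapdh itself. The rest of the 177 annotated copies have no value here. Whether reads of Gapdh were lost to them cannot be seen, so its level and its differences are uncertain.

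All 5 genes of amino acid and iron uptake were above 0 in KO iNKT. Slc7a5, the catalytic chain LAT1 of the large neutral amino acid exchanger, was at 5.67 and 17.8 FPKM in iNKT and 6.60 and 9.69 FPKM in CD44hi. KO iNKT was the highest library and 3.14-fold above WT iNKT (2.49 to 3.96). Slc3a2, the heavy chain that partners LAT1 at the membrane, was at 52.7, 55.6, 49.0 and 53.8 FPKM, a ratio of 1.05 in iNKT (0.929 to 1.20), so the chains of that transporter did not differ alike between these libraries. Tfrc, the transferrin receptor that takes up iron, was at 12.0, 21.6, 9.90 and 17.1 FPKM, with both KO libraries above both WT libraries. Its ratio in iNKT was 1.80 (1.52 to 2.16). The glutamine transporters Slc1a5 and Slc38a2 had ratios of 1.24 (1.15 to 1.34) and 1.15 (1.07 to 1.23).

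The 3 regulators were also above 0 in KO iNKT. Myc was at 37.4 and 58.0 FPKM in iNKT and 29.1 and 45.6 FPKM in CD44hi. As for Tfrc, both KO libraries were above both WT libraries, and the ratio in iNKT was 1.55 (1.35 to 1.78). Hif1a was at 28.2, 39.0, 61.6 and 33.6 FPKM, with WT CD44hi the highest and WT iNKT the lowest library and a ratio in iNKT of 1.38 (1.25 to 1.54). Srebf2 was at 16.8, 23.8, 51.9 and 44.0 FPKM, 1.42-fold higher in KO iNKT (1.24 to 1.62) and lower in both iNKT libraries than in either CD44hi library.

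Of the 11 sterol genes 6 were above 0 in KO iNKT, where 55.9% of all measured genes were, with a median log2 difference of 0.12. The interval of the ratio lay above 1 for 4 genes, below 1 for none and included 1 for 7. Cyp51, which removes a methyl group from lanosterol, was at 2.19 and 5.66 FPKM in iNKT and 9.34 and 8.72 FPKM in CD44hi. WT iNKT was the lowest library, and the KO iNKT level was 2.58-fold higher (1.80 to 3.76). Sqle, squalene epoxidase, was at 0.685, 1.55, 6.27 and 7.15 FPKM. Only about 9 fragments lay behind its WT iNKT value and 22 behind the KO iNKT value, and the interval of the ratio, 2.26 (1.001 to 5.58), was wide. Dhcr7, the last reductase of cholesterol synthesis, was at 12.4, 19.7, 11.9 and 13.7 FPKM and 1.59-fold higher in KO iNKT (1.299 to 1.93).

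Other sterol genes had smaller ratios in iNKT. Hmgcs1, HMG-CoA synthase, was at 8.23, 9.83, 13.6 and 16.8 FPKM, a ratio in iNKT of 1.19 (0.947 to 1.504). Idi1, isopentenyl diphosphate isomerase, was at 3.20, 4.71, 7.35 and 10.1 FPKM, a ratio of 1.47 (1.01 to 2.17). Mvd, mevalonate diphosphate decarboxylase, was at 11.02, 9.09, 9.94 and 15.7 FPKM and highest in KO CD44hi, with a ratio in iNKT of 0.825 (0.603 to 1.11). Insig1, the sterol-dependent retention protein of the SREBP pathway and itself a classical SREBP2 target, was at 11.3, 10.04, 13.0 and 14.3 FPKM, a ratio of 0.887 (0.701 to 1.12). The ratios of Fdps, Fdft1, Lss and Sc4mol lay between 0.800 and 1.10, all with intervals that include 1.

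Markers of dividing cells differed along with these genes. The 12 cycling markers summed to 252 FPKM in WT iNKT and 402 in KO iNKT, and all 12 were above 0, with a median log2 difference of 0.75, while their sums in CD44hi were 249.9 in WT and 243 in KO. The activation markers summed to 1070 FPKM in WT iNKT and 1004 in KO iNKT, with 8 of 12 above 0. At 2-fold 5 of them were called higher and 1 lower, against 6.08% and 3.33% of all measured genes. The NK cell markers summed to 79.2 FPKM in WT iNKT and 120.5 in KO iNKT. The part of dividing, activated or NK cells in the higher enzyme, uptake and regulator levels of KO iNKT was not tested. B cell markers were all under 1 FPKM in both iNKT libraries.

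**Figure D2:**
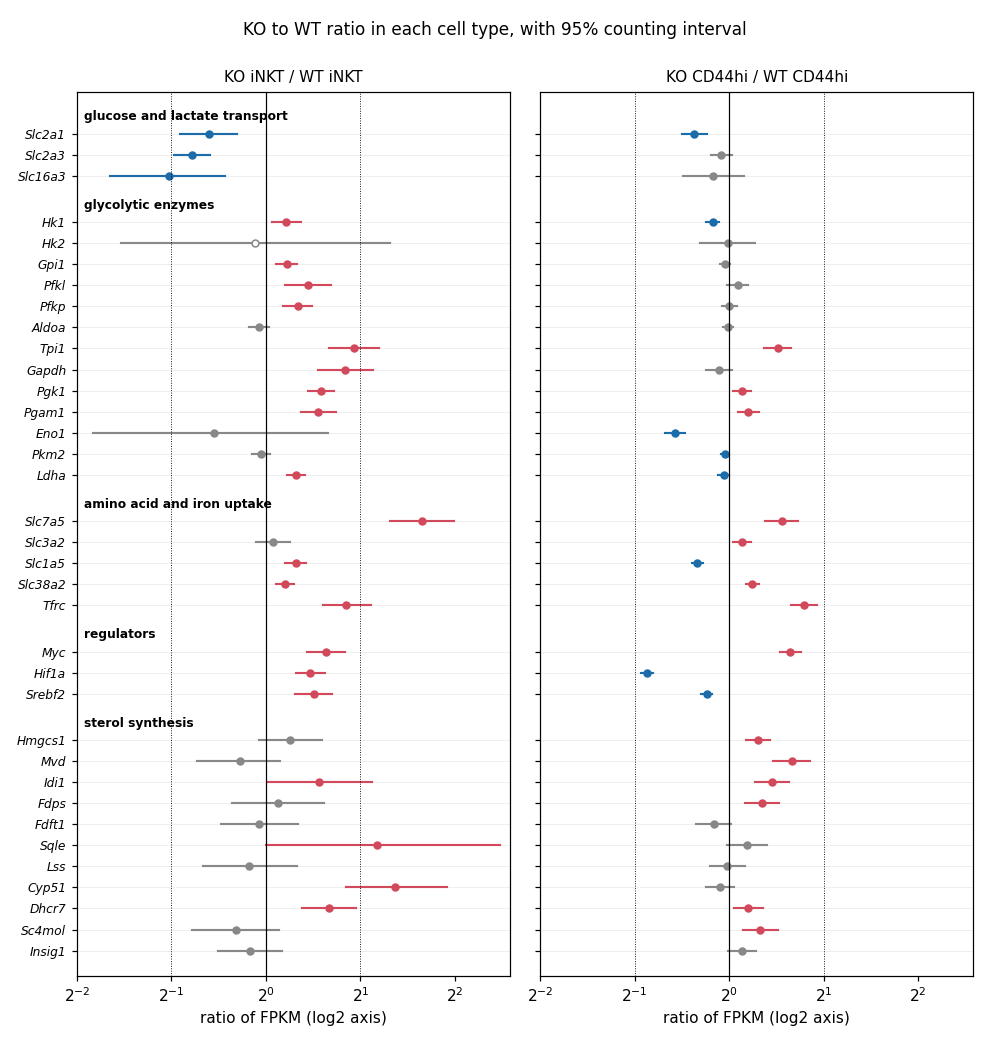
Ratio of KO to WT FPKM for each of the 35 genes in iNKT (left) and CD44hi cells (right), on a log2 axis, with the 95% counting interval as the bar; red and blue mark intervals above and below 1, grey intervals that include 1, the open circle a gene not measured, and dotted lines 2-fold. The 3 transporters lie left of 1 in iNKT, Slc7a5 lies farthest right there, and Hif1a lies farthest left in CD44hi.

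In CD44hi cells the genotypes differed less. The genes with the largest differences toward the KO library were Tfrc, Myc and Mvd, and the gene with the largest difference in the other direction was Hif1a. Of 35 measured genes none was called at 2-fold in either direction, where 2.44% of all 11352 measured genes were called higher and 1.14% lower, and the median log2 difference was 0.00, beside 0.01 over all measured genes. Of the 35 genes 18 were above 0, where 52.4% of all measured genes were. The interval of the ratio lay above 1 for 14 genes, below 1 for 8 and included 1 for 13. At 1.5-fold 3 genes were higher, Tfrc, Myc and Mvd, and 1 was lower, Hif1a, against 6.43% and 3.47% of all measured genes.

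Tfrc was 1.73-fold higher in KO CD44hi (1.57 to 1.91) and Myc 1.57-fold (1.45 to 1.69), both close to their iNKT ratios of 1.80 and 1.55. Slc7a5 was 1.47-fold higher (1.304 to 1.66). Hif1a was 1.83-fold lower in KO CD44hi (1.75 to 1.91), from the highest of the 4 levels to one near those of the iNKT libraries. Among the sterol genes 8 of 11 were above 0, with a median log2 difference of 0.18. Mvd was 1.58-fold higher (1.38 to 1.81) and Idi1 1.37-fold (1.21 to 1.55). The glycolytic enzymes were on both sides of 1, with 5 of 13 above 0 and a median log2 difference of -0.01. Tpi1 had the highest ratio among them at 1.43 (1.29 to 1.58), and Gapdh had a ratio of 0.926 (0.842 to 1.02). Slc2a1 was 1.29-fold lower (1.18 to 1.42).

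Other cell types and states differed along with genotype in the CD44hi pair. From WT to KO CD44hi the red cell markers summed to 154 and 737 FPKM, the plasmacytoid dendritic cell markers to 151 and 581, the myeloid markers to 429 and 687 and the activation markers to 1290 and 764. Foxp3, the factor that defines regulatory T cells, was at 53.8 FPKM in WT CD44hi and 13.4 in KO CD44hi. Transferrin receptor is abundant in red cell precursors, and the part of any of these cells in the values of Tfrc, Hif1a or the sterol genes was not tested. In iNKT the red cell markers summed to 19.1 FPKM in WT and 18.5 in KO.

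The pairs of libraries for the 2 cell types share no library, so the genotype differences can be set side by side. Of 34 genes measured in both pairs, 23 had the same sign, 15 higher and 8 lower in KO, a share of 67.6% against 54.3% of the 10453 genes measured in both. Some of these differences were within counting error. For 15 of the 34 genes the intervals of both ratios exclude 1. Among those, Hk1, Ldha, Slc1a5, Hif1a and Srebf2 were higher in KO iNKT but lower in KO CD44hi. The 3 transporters were below 0 in both cell types, but in CD44hi the intervals of Slc2a3 (0.945, 0.878 to 1.02) and Slc16a3 (0.889, 0.710 to 1.11) include 1. Of the 5 uptake genes 4 were above 0 in both, with the interval of Slc3a2 in iNKT including 1. Myc had nearly equal log2 differences of 0.62 in iNKT and 0.63 in CD44hi, and Tfrc of 0.80 and 0.73. Of the 34 genes, 3 had a genotype difference at least 2-fold greater in iNKT than in CD44hi, where 5.64% of genes did, and none had one at least 2-fold smaller, where 4.53% did. They were Hif1a, at 0.45 and -0.85, Cyp51, at 1.06 and -0.09, and Slc7a5, at 1.49 and 0.49. Gapdh followed at 0.81 and -0.11, and Srebf2 was higher in KO iNKT (0.48) and lower in KO CD44hi (-0.23). At the other end was Mvd, at -0.25 in iNKT and 0.61 in CD44hi. The difference between cell types has no test with 1 library per group.

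The second question was which of the genes separate the cell types within a genotype. In both genotypes the sterol genes Sqle, Cyp51 and Idi1, their regulator Srebf2, the hexokinase Hk2 and Eno1 as listed were lower in iNKT, and the glutamine transporter Slc38a2 and the enzyme Pgk1 were higher. In WT none of the 35 genes was called higher in iNKT and 6 were called lower, Hk2, Eno1, Hif1a, Srebf2, Sqle and Cyp51, where 3.64% of all 11216 measured genes were called higher and 10.9% lower. In KO 1 gene was called higher, Pgk1, and 3 lower, Hk2, Eno1 and Sqle, where 3.02% of 11469 were called higher and 9.06% lower. At 1.5-fold 4 genes were higher and 9 lower in WT, against 10.3% and 19% of all measured genes, and 5 were higher and 10 lower in KO, against 10.5% and 16.1%. The median log2 difference was -0.19 in WT and -0.06 in KO, beside -0.06 and -0.02 over all measured genes. These comparisons use the same 4 libraries as the genotype comparisons and are not independent of them.

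Among the 11 sterol genes 9 were below 0 in iNKT against CD44hi in both genotypes. The interval of the ratio lay below 1 for 6 genes in WT and 9 in KO. Only 2 genes in WT and 1 in KO were above 0, shares of 18.2% and 9.09% against 44.5% and 48.2% of all measured genes, and the median log2 difference was -0.56 in WT and -0.71 in KO. At 1.5-fold 5 were lower in WT and 7 in KO, with none higher. Sqle was 9.16-fold lower in WT iNKT (4.78 to 20.3) and 4.61-fold lower in KO iNKT (3.02 to 7.46). Cyp51 was 4.26-fold lower in WT (3.13 to 5.99) but 1.54-fold lower in KO (1.28 to 1.90), since the 2 CD44hi levels were alike and the iNKT levels were not. Idi1 was 2.30-fold lower in WT (1.71 to 3.20) and 2.14-fold in KO (1.69 to 2.76). Srebf2 was 3.09-fold lower in WT (2.78 to 3.44) and 1.84-fold in KO (1.69 to 2.02). Dhcr7, with ratios of iNKT to CD44hi of 1.04 in WT and 1.44 in KO, was the exception in both genotypes, and Mvd was above its CD44hi level only in WT, at a ratio of 1.11 (0.875 to 1.40).

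The summed B cell, myeloid and red cell markers were higher in the CD44hi libraries than in the iNKT libraries of both genotypes. Not every marker followed its sum. Of 15 myeloid markers 3 in WT and 2 in KO were higher in iNKT. So was 1 of 7 measured red cell markers in WT and 1 of 9 in KO. The 15 myeloid markers summed to 34.0 FPKM in WT iNKT and 15.9 in KO iNKT against 429 and 687 in WT and KO CD44hi. Their part in the higher sterol gene levels of the CD44hi libraries was not tested.

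The glycolytic enzymes did not differ in 1 direction between the cell types. Hk2 was at 2.31 FPKM in WT CD44hi and 2.29 in KO CD44hi, 4.88-fold above WT iNKT (2.49 to 9.96) and 5.21-fold above KO iNKT (2.67 to 10.6), with about 10 fragments in each iNKT library. Pgk1 was higher in iNKT, by 1.73-fold in WT (1.58 to 1.90) and 2.35-fold in KO (2.19 to 2.53). Ldha was 1.18-fold higher in WT iNKT (1.12 to 1.26) and 1.54-fold in KO iNKT (1.46 to 1.62). Pkm2 was 1.32-fold lower in WT iNKT (1.26 to 1.39) and 1.33-fold in KO iNKT (1.27 to 1.40). Gapdh was 1.42-fold lower in WT iNKT (1.19 to 1.70) but 1.36-fold higher in KO iNKT (1.19 to 1.55). Slc2a3 and Slc16a3 were 1.70-fold and 1.73-fold higher in WT iNKT, while in KO their ratios were 1.05 (0.935 to 1.17) and 0.952 (0.646 to 1.36). Hif1a was 2.18-fold lower in WT iNKT (2.01 to 2.38) but 1.16-fold higher in KO iNKT (1.08 to 1.25).

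**Figure D3:**
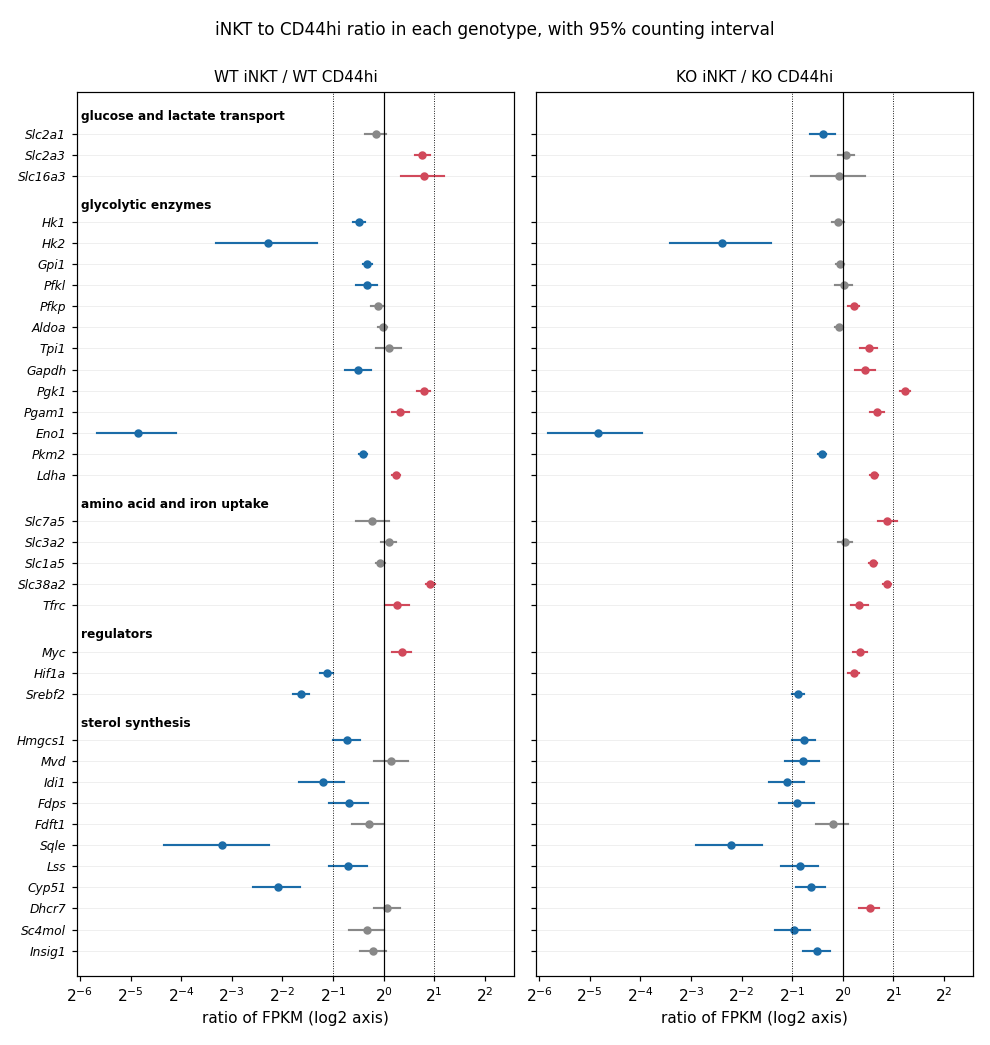
Ratio of iNKT to CD44hi FPKM for each of the 35 genes in WT (left) and KO (right), on a log2 axis, with the 95% counting interval as the bar, the same colours and dotted lines at 2-fold. Most sterol genes lie left of 1 in both panels, Eno1 lies farthest left in both, and Pgk1 lies right of the 2-fold line only in KO.

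Eno1 needs care because the files split enolase between near-identical genes. Eno1 itself was at 1.53 and 1.04 FPKM in iNKT and 44.2 and 29.8 FPKM in CD44hi, so that as listed it was 29.0-fold lower in WT iNKT (17.1 to 50.7) and 28.6-fold lower in KO iNKT (15.6 to 56.4). Gm5506, which the GENCODE annotation calls Eno1b, aligned to Eno1 over 1736 bases at 99.5% identity. It was at 179 and 143 FPKM in iNKT and 187 and 142 FPKM in CD44hi, summed over its 2 rows. Together they gave 180.4, 144.0, 231 and 172 FPKM, and the sum was 1.28-fold lower in WT iNKT than in WT CD44hi and 1.19-fold lower in KO iNKT than in KO CD44hi. Between genotypes the sum was 1.25-fold lower in KO iNKT than in WT iNKT and 1.34-fold lower in KO CD44hi than in WT CD44hi. The share of the sum assigned to Eno1 was 0.846% and 0.722% in the iNKT libraries and 19.1% and 17.3% in the CD44hi libraries. Reads of genes this alike cannot be assigned with confidence, so the level of Eno1 is uncertain and its call in both cell type comparisons holds only for the files' own split. Of the other members, Aldoa has a near-identical relative, Aldoart1, at 14.4 to 19.3 FPKM, and Ldha has Gm13315 at 1.47 to 5.11 FPKM, both small beside the member.

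**Figure D4:**
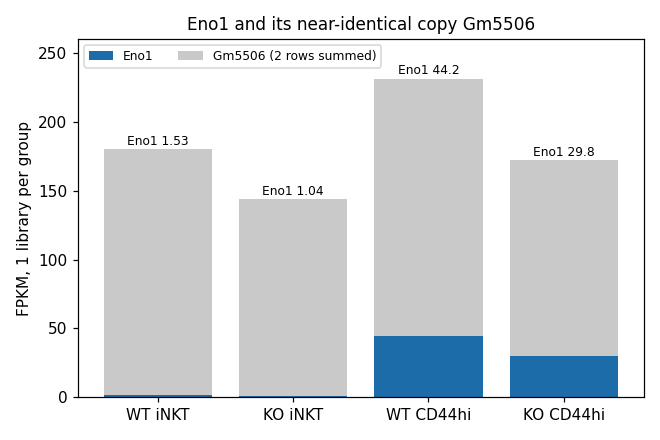
Stacked bars of FPKM for Eno1 (blue) and its near-identical copy Gm5506 (grey, 2 rows summed) in each of the 4 libraries. The blue part is 1.53 and 1.04 FPKM in iNKT and 44.2 and 29.8 in CD44hi, while whole bars run from 144.0 to 231 FPKM.

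Other genes of the same pathways, taken from lists by function, gave context for the genotype difference in iNKT. Of 22 ribosome biogenesis and growth genes known to respond to MYC, 21 were above 0 in KO iNKT, with a median log2 difference of 0.51, and 20 in KO CD44hi, with a median of 0.24, beside 0.05 and 0.01 over all measured genes. None was called at 2-fold in either comparison, and 7 were higher at 1.5-fold in KO iNKT, against 14.3% of all measured genes. In KO CD44hi 1 was higher and 1 lower at 1.5-fold, against 6.43% and 3.47%. The other members of the MYC network showed no such lean, with 4 of 9 measured above 0 in KO iNKT. Mycn was at 0.08 FPKM in WT iNKT and at 0 in the other libraries, and Mycl1 was at 0 in both iNKT libraries, 2.46 FPKM in WT CD44hi and 6.22 in KO CD44hi.

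Of 28 measured genes of glucose metabolism outside the 35, 2 were called higher and 2 lower in KO iNKT, against 6.08% and 3.33% of all measured genes, and 14 were above 0, where 55.9% of all were. Txnip, which restrains glucose uptake by removing transporters from the surface, was at 426 and 113 FPKM in iNKT and 236 and 176 FPKM in CD44hi, 3.77-fold lower in KO iNKT (3.57 to 3.98). Its relative Arrdc4 was at 0.68, 5.65, 5.83 and 7.15 FPKM, 8.30-fold higher in KO iNKT (4.18 to 20.8), so these arrestin-family genes, both known targets of the glucose-sensing factor MondoA, differed in opposite directions. The intracellular glucose transporter Slc2a8 was at 17.1, 6.77, 3.46 and 4.58 FPKM, 2.53-fold lower in KO iNKT (1.84 to 3.47), the same direction as Slc2a1 and Slc2a3. The muscle-type phosphoglycerate mutase Pgam2 was at 3.86, 3.83, 2.84 and 7.32 FPKM, 2.58-fold higher in KO CD44hi (1.82 to 3.70). It was the 1 gene called higher there among 30 measured genes of the list, where 2.44% of all measured genes were. Pdk1, the kinase that keeps pyruvate out of mitochondria, was at 29.1, 22.7, 18.4 and 18.8 FPKM.

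In the sterol and lipid synthesis list 3 of 25 measured genes were called higher in KO iNKT and none lower, against 6.08% and 3.33% of all measured genes. Acly, which makes cytosolic acetyl-CoA from citrate, was at 49.8 and 136 FPKM in iNKT and 52.8 and 65.1 FPKM in CD44hi, 2.73-fold higher in KO iNKT (2.55 to 2.94). The desaturase Scd2 was at 12.4, 28.7, 27.3 and 39.1 FPKM. For Scd2, as for Cyp51, WT iNKT was the lowest library. Srebf1 was at 23.0, 20.6, 23.2 and 24.1 FPKM. Of 10 measured genes of sterol efflux and storage 2 were called lower in KO iNKT, where 3.33% of all were, Soat2, which esterifies cholesterol, at 30.0, 11.6, 6.70 and 16.0 FPKM, and Mylip, a ubiquitin ligase induced by sterol-sensing LXR, at 46.7, 22.0, 23.1 and 22.4 FPKM. Soat2 was 2.60-fold lower in KO iNKT (2.12 to 3.19) but 2.39-fold higher in KO CD44hi (2.08 to 2.75).

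In amino acid and iron transport 3 of 19 measured genes were called higher in KO iNKT and none lower, against the same 6.08% and 3.33%. Steap3, an iron reductase that works with the transferrin receptor, was at 2.20 and 13.2 FPKM in iNKT and 0.43 and 1.69 FPKM in CD44hi, 6.00-fold higher in KO iNKT (4.12 to 9.11) and 3.91-fold higher in KO CD44hi (2.43 to 6.28), as for Tfrc higher in KO in both cell types. The cationic amino acid transporter Slc7a1 was at 6.88, 17.8, 8.23 and 7.99 FPKM, and Slc36a4 at 1.90, 5.06, 4.82 and 4.22 FPKM. Both were above WT iNKT in KO iNKT, by 2.59-fold (2.23 to 3.01) and 2.67-fold (1.85 to 4.02), and differed little between the CD44hi libraries.

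The lists of oxygen sensing and of mTOR and energy sensing had no common direction in KO iNKT, with 8 of 17 and 13 of 24 measured genes above 0. Egln3, a HIF hydroxylase and itself a HIF target, was at 2.51, 10.4, 10.6 and 6.73 FPKM, a pattern like that of Hif1a in being higher in KO iNKT and lower in KO CD44hi. Among the mTOR genes Eif4ebp1, a translation inhibitor, was at 3.49, 9.91, 7.36 and 11.1 FPKM, and the stress-induced Sesn2 at 1.97, 5.19, 4.84 and 6.24 FPKM. Pik3ip1, a negative regulator of PI3 kinase, was at 67.5, 28.4, 26.3 and 26.0 FPKM, and Sesn1 at 87.6, 40.3, 32.1 and 41.7 FPKM. For Pik3ip1, as for Slc2a3, WT iNKT stood apart from the other 3 libraries. Foxo1 was at 22.3, 22.6, 39.4 and 29.6 FPKM.

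**Figure D5:**
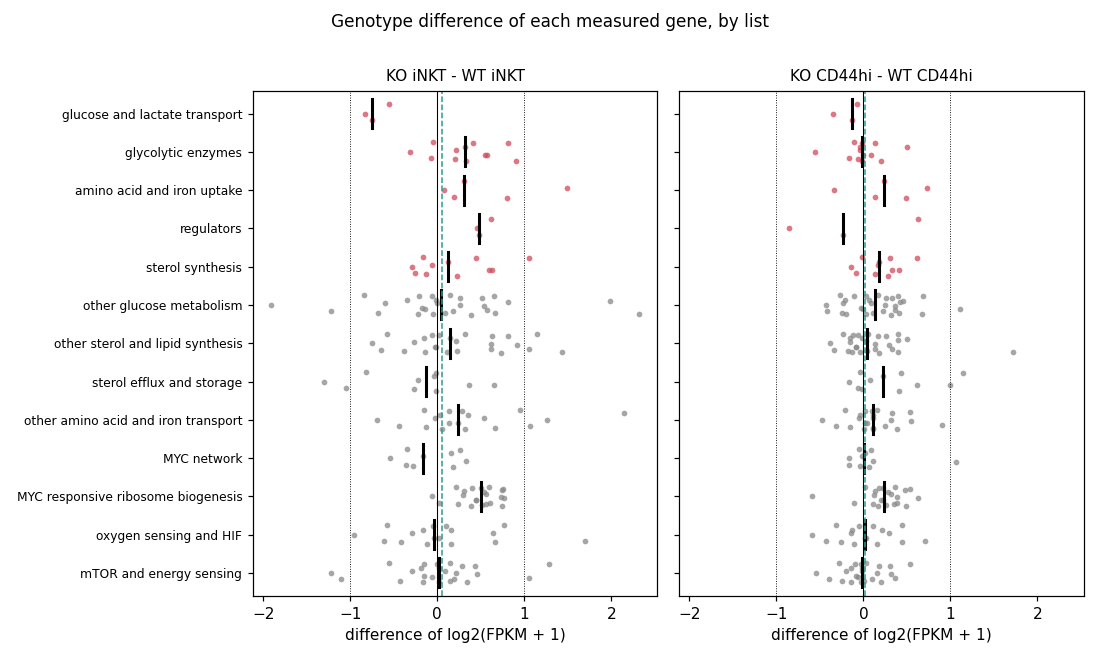
Difference of log2(FPKM + 1) between KO and WT for each measured gene of each list, in iNKT (left) and CD44hi cells (right); red points are the 35 genes by role, grey points other genes of the pathways, black bars list medians, the green dashed line the median of all measured genes and dotted lines 2-fold. In iNKT the transport list has its median at -0.75 and the MYC responsive list at 0.51, and in CD44hi the medians lie between -0.23 and 0.24.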

How the data were processed

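RNA from 4 libraries was analysed, 1 per group, with groups taken from the sample titles. TRIzol, Picopure columns and the TruSeq v2 RNA kit, which keeps no strand information, were used per the labels' protocols. The authors deposited FPKM per gene symbol, as the file headers show. Build mm10, TopHat 1.3.2, Cufflinks 2.0.2 and Bowtie2 2.0.0 are named in the submitters' processing notes without their roles. The gene annotation is not given in the sources used here, so genes that overlap on opposite strands cannot be told apart.

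The files list 23720 (iNKT) or 23746 (CD44hi) rows. The 26 symbols not in all files and 785 small RNA symbols were left out, and 240 symbols on several rows were summed. Depth was estimated from steps of low FPKM values over GENCODE M21 gene lengths, with 69.7% to 74.6% of the low values within 0.15 of a whole fragment, so it is approximate. For a 2 kilobase transcript a single fragment equals 0.102 (WT) and 0.0946 (KO) FPKM in iNKT and 0.0277 (WT) and 0.0209 (KO) in CD44hi. Differences used log2(FPKM + 1), a minimum of 1 FPKM and a 2-fold call; alternatives were pseudocounts of 0.1 and 5, other minimums, a 1.5-fold call, centring and rescaling. Near-identical copies were found with blastn 2.17.0; other steps used Python 3.11.15 with scipy 1.17.1, checked on simulated data.

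The genes and lists were chosen with earlier results of these data known. Values in every library are printed for 24 genes: those called at 2-fold, the 2 per role with the largest genotype difference, and a set of key genes; the other 11 are given by ranges and ratios. Of the other lists, up to 4 called genes each are named, plus 8 fixed ones; some of these genes are not reported here.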

Additional observations from a re-analysis of the deposited data

Results flagged for a closer look

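The genotype difference of Hif1a had opposite signs in the cell types. It was higher in KO iNKT than in WT iNKT (log2 difference 0.45) and lower in KO CD44hi than in WT CD44hi (-0.85), and the difference between these effects was 1.31. Cyp51 was higher in KO iNKT (1.06) and slightly lower in KO CD44hi (-0.09), a difference between effects of 1.15; the interval of its CD44hi ratio, 0.934 (0.843 to 1.04), includes 1. Each cell type has 1 library per genotype, so neither difference was tested.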

How the results depend on the processing

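Most values of single genes were little affected by the settings tried. Of 564 values of single genes under alternatives 544 moved by less than the distance from the middle to the end of their log2 counting interval. The other 20, not all of them of Eno1, moved by more. The 4 values that took the other sign had an absolute log2 difference of at most 0.06. Counts of called genes depend on the fold and the pseudocount. With a 1.5-fold call KO iNKT against WT iNKT had 8 higher and 2 lower genes in place of 2 and 0, KO CD44hi against WT CD44hi 3 and 1 in place of 0 and 0, WT iNKT against WT CD44hi 4 higher in place of 0, and KO iNKT against KO CD44hi 5 higher and 10 lower in place of 1 and 3. At that fold 10 genes differed in genotype effect in place of 3. Of these Mvd, Slc16a3, Slc2a3 and Sc4mol had the smaller effect in iNKT and the rest the greater. The share of all genes was computed for this difference only at 2-fold. With a pseudocount of 5 FPKM the counts were 1 higher in KO iNKT, 3 lower in WT iNKT and 1 lower in KO iNKT against CD44hi, and 1 difference of effect. With 0.1 FPKM 1 gene was lower in KO iNKT against WT iNKT, Slc16a3, and Sqle was also called higher there. Idi1 was then also called lower in iNKT than in CD44hi in both genotypes. Summing Eno1 with Gm5506, chosen after seeing the data, left 5 lower genes in WT iNKT and 2 in KO iNKT, without Eno1. The estimated depth limits genes with few fragments, among them Hk2, Eno1 and Sqle in iNKT. No paired analysis was possible because each group has 1 library and the labels give no replicate numbers.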
